A study of Mus musculus with 20 samples.

Results

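The Hox genes of the 4 mouse Hox clusters were followed in cells sorted for a Trpv1 reporter from dorsal root ganglia (DRG) of adjoining spinal levels. The members were taken by symbol, as the protein-coding genes named Hox, then a cluster letter from a to d, then a number, which gave 38 symbols on 39 of the 37620 rows of the expression table, because Hoxa3 is listed under 2 Ensembl identifiers. HoxA and HoxB had 10 of these symbols each, and HoxC and HoxD had 9 each. The rule reads symbols and no measured value.

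The libraries came from homozygous Trpv1tm2Bbm mice, aged 6 to 8 weeks, of which 5 donors were male and 5 were female. In this knock-in line the Trpv1 gene drives placental alkaline phosphatase and a nuclear beta-galactosidase, and cells that turned over a fluorescent galactosidase substrate most brightly were sorted from dissociated ganglia. No sample from a mouse without the reporter alleles was compared. Each donor gave a lumbar (L4-5) and a sacral (L6-S1) library, so the 20 libraries formed 4 groups of 5, male lumbar, male sacral, female lumbar and female sacral. A donor label carries 2 animal numbers, so a library may hold cells of 1 or of 2 mice, and donors are called M1 to M5 and F1 to F5 here. The library numbers in the labels run in an unbroken block for each group. Their order therefore cannot be told apart from level and sex, and the labels do not say what it stands for. Total RNA was amplified to cDNA before library preparation with a kit that does not mark strand.

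Hox genes encode homeodomain transcription factors that give cells along the body axis their positional identity. Within a cluster the genes lie in the order in which they are switched on from head to tail, so that members with low paralogue numbers act in the hindbrain and neck and members with high numbers in the lumbar, sacral and tail regions. Genes with the same number in different clusters are paralogues that arose by cluster duplication. Hox proteins bind DNA with TALE cofactors such as Pbx and Meis proteins, and their on and off states are kept by Trithorax and Polycomb complexes. In the nervous system they are best known for specifying motor neuron pools, and adult neurons keep expressing part of the set.

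Levels are given in log2 RPKM, which scales the reads of a gene by its exon length and by library size. Read numbers were worked back from the steps of the deposited values, and libraries held 43499216 to 65542378 reads. The 10 nociceptor markers summed to a median of 2182 RPKM in lumbar and 2402 RPKM in sacral libraries. In sacral DRG 8 of 10 nociceptor markers and 6 of 6 pan-neuronal markers rose (30.3% of all genes tested did), and 9 of 10 glial markers fell (15.3% of all genes did). Snap25, a pan-neuronal marker, was not called with TMM factors, and with the glial marker mean as a covariate no nociceptor or pan-neuronal marker was called. The mean of the 10 glial markers ranged from 6.31 to 7.33 log2 RPKM in lumbar and from 5.46 to 6.50 in sacral libraries, and it was lower in the sacral library of all 10 donors, by 0.86 ± 0.23 (SD, n = 10). The summed glial markers reached 2042 to 4020 RPKM in lumbar (median 2568, above the nociceptor sum) and 1263 to 2121 RPKM in sacral libraries (median 1594), so the sorted material held glial RNA beside neuronal RNA at both levels. Of the other lists, 4 of 4 red cell, 7 of 8 endothelial and mural and 4 of 6 fibroblast markers fell in sacral DRG. Of 4 tested macrophage markers 2 fell. The other endothelial and mural marker, Rgs5, rose (0.37, adjusted p = 0.015), but was not called with TMM factors. Summed endothelial and mural markers had a median of 163 RPKM at both levels. Fibroblast markers had 102 RPKM in lumbar and 121 RPKM in sacral libraries. Both sums were higher in the sacral library of 6 donors, and those of red cell and macrophage markers in none. Of 4 tested markers of large sensory neurons, Pvalb and Spp1 fell, and Ntrk3 (0.27) and Etv1 (0.23) were not called. Of the 6 spinal cord and motor neuron markers, Chat and Olig2 had no read in any library, Mnx1, Slc6a5 and Lhx3 had reads in 1 or 2 libraries, and Isl2 was present in all 20 and rose in sacral DRG (0.56, adjusted p = 0.00089). With the glial marker mean as a covariate Isl2 had -0.06 (adjusted p = 0.94). Isl2 was the only gene of this list to be tested and does not by itself mark spinal cord material. In these sorted bulk samples, fewer cells of a type and less RNA per cell cannot be told apart.

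The promoters of 22 of the 38 genes were matched by symbol in RefSeq (build GRCm38.p6), as 24 windows of 250 bases before and 50 bases after a start. The windows of the 4 HoxD genes that rose together in sacral DRG are shown in 5′ to 3′ direction. Those of Hoxb8 and Hoxd4, the 2 windows with a Cdx motif, are shown as well. Sacral read numbers of both genes were the lower ones, and both were too low in level to be tested. Capitals mark every match, on either strand, to 4 short motifs, TTTATNG of the Cdx factors, TGATTNAT of Pbx with Hox, the homeodomain core TAATTA and the nuclear receptor half-site AGGTCA.
Hoxd8, chr2:74704365-74704664: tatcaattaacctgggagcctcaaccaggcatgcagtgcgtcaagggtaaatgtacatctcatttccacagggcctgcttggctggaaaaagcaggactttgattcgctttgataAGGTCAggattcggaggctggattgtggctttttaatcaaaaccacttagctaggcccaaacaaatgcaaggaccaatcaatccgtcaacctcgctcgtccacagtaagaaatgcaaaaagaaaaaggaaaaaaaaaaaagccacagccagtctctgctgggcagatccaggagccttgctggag
Hoxd9, chr2:74697513-74697812: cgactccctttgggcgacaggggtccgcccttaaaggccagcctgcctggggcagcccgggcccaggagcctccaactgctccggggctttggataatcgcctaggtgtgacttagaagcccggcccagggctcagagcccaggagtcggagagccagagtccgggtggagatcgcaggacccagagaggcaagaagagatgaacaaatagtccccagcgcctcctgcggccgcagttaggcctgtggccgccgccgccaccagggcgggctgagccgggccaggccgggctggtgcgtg
Hoxd10, chr2:74691641-74691940: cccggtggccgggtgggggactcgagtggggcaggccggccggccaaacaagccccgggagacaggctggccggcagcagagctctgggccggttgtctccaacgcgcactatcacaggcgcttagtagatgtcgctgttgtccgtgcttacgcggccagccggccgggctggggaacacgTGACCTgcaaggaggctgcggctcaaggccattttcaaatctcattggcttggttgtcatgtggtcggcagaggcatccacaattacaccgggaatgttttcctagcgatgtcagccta
Hoxd11 upstream start, chr2:74679308-74679607: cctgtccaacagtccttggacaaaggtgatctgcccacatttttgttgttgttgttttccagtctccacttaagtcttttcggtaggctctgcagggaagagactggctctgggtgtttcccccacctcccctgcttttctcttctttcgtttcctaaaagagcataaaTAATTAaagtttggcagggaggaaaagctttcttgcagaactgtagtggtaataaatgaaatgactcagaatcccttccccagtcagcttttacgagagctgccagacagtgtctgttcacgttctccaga
Hoxd11 downstream start, chr2:74682073-74682372: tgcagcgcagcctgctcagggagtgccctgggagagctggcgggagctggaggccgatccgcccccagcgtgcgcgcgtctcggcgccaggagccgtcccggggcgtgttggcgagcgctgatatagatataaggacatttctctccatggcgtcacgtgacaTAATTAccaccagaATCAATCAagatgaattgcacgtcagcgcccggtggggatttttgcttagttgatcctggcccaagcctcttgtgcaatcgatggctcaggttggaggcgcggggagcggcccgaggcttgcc
Hoxd4, chr2:74721728-74722027: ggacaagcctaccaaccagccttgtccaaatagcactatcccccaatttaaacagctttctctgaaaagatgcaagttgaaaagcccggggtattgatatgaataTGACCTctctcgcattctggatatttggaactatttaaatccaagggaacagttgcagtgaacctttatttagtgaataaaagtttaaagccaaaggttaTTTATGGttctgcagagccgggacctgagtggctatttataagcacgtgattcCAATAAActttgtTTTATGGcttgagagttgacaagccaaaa
Hoxb8, chr11:96281655-96281954: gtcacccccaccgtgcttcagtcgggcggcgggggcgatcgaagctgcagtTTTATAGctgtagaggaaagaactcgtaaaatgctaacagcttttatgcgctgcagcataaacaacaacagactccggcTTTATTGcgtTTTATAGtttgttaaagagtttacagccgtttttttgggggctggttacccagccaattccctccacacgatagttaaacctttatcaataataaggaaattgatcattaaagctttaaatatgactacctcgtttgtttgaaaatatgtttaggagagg

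All of these windows lie on the plus strand. The Cdx motif was found in 2 of the 24 Hox windows, 3 times each in Hoxb8 and Hoxd4, and in 10.9% of the 32851 windows of all genes. Windows of Hoxa2, Hoxa7, Hoxb4, Hoxc4 and Hoxd3, which were called higher in lumbar DRG, held no Cdx motif and are not shown. TGATTNAT was found in 2 Hox windows, those of Hoxa2 and of the downstream start of Hoxd11, and in 3.22% of all windows. TAATTA was found in 2 Hox windows, both of Hoxd11, and in 5.29% of all. The half-site AGGTCA was found in 7 Hox windows, among them those of Hoxd8, Hoxd10 and Hoxd4, and in 16.3% of all. Hoxd9 held none of the 4 motifs. CG dinucleotides had a median of 14.5 per Hox window and 7 per window over all genes, and the windows shown ranged from 4, in Hoxd4 and at the upstream start of Hoxd11, to 25 at the downstream start of Hoxd11. A match is a description of the letters and no measure of binding.

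The clusters also hold miRNA genes, whose mature forms from RefSeq are given with the seed, bases 2 to 8, in capitals. They are shown because they share 2 seeds across the clusters.
miR-10a-5p, HoxB: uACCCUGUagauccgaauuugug
miR-10b-5p, HoxD: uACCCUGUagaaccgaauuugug
miR-196a-5p, HoxB and HoxC: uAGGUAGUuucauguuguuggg
miR-196b-5p, HoxA: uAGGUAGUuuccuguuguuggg

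The rows of the miRNA genes count reads of long RNA over the hairpin and do not measure the mature form. Mir196b had 5 to 27 reads (median 9) per lumbar library and 4 to 19 reads (median 10.5) per sacral library. Mir10b had 0 to 14 reads (median 6.5) and 0 to 10 reads (median 0.5), and the rows of Mir10a, Mir196a-2 and Mir615 had at most 2 reads in a library.

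The question of the comparison was which Hox genes differ between lumbar and sacral Trpv1-sorted cells. The genes of the HoxD cluster from Hoxd8 to Hoxd11, and Hoxc10 and Hoxc11, rose in sacral DRG, and genes with middle numbers of HoxB and HoxC fell. Of the 39 rows, 34 had reads, 27 of them in all 20 libraries, and 25 passed the filter and were tested. Of the 25, 17 passed the threshold (68.0%, against 45.6% of all 16304 genes tested), 6 of them higher in sacral DRG (24.0%, against 30.3% of all genes) and 11 higher in lumbar DRG (44.0%, against 15.3%). A gene entered the test when its mean was above -1 in at least 1 group, so a member can enter through the level where it is high. Hoxa2, Hoxb6, Hoxb7, Hoxb9, Hoxc5 and Hoxd3 entered through lumbar groups only and all 6 were called higher there, and Hoxa4 and Hoxc11 entered through sacral groups only. Of the 17 members that entered at both levels, 5 were higher in sacral DRG (29.4%, against 32.1% of the 14959 genes that entered at both) and 5 were higher in lumbar DRG (29.4%, against 13.9%). With the filter at a mean above 0 the calls were 7 and 5 of 18 members. All 10 donors went one way in 10 of the 25 members as well as passing the threshold, against 19.9% of all genes. The test was limma with the donor as a random block and an adjusted p of at most 0.05. The median log2 fold change, written throughout as sacral minus lumbar, was -0.21 over the 25 genes and 0.11 over all genes. With TMM factors from the worked-back reads the median of all genes was 0, the split of all calls went from 66.5% to 50.9% higher in sacral DRG, and the Hox calls stayed at 6 and 11, against 21.9% and 21.1% of all genes. In a voom fit on those reads 6 and 13 of 27 Hox genes were called, against 23.2% and 21.2% of all genes.

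**Figure D1:**
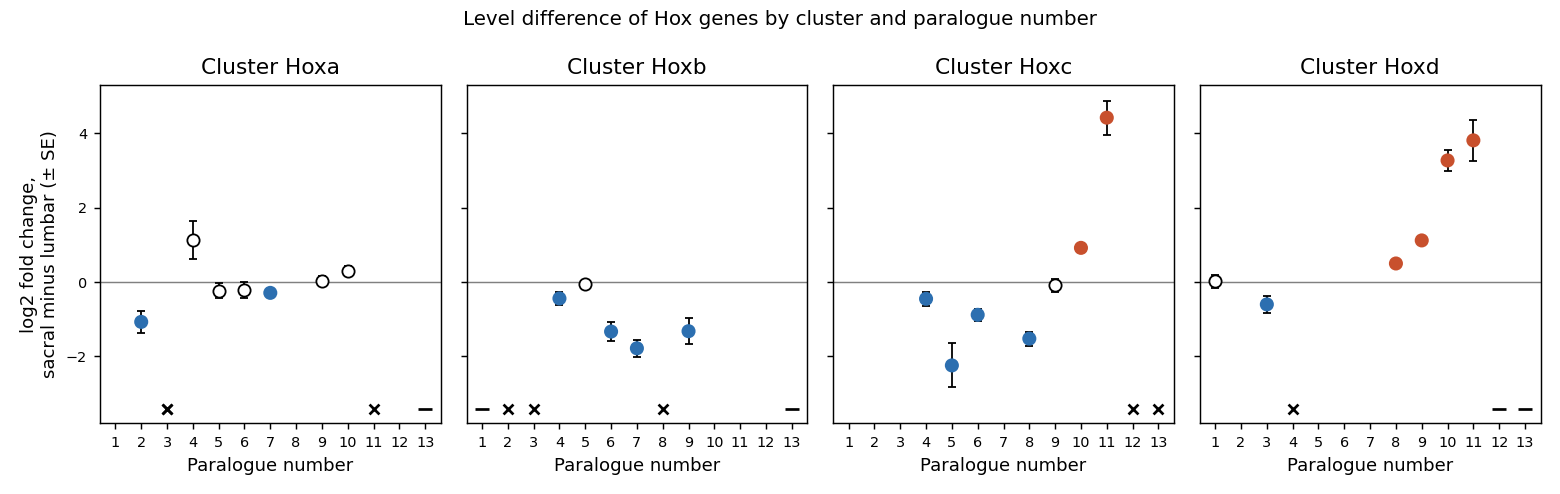
Log2 fold change (sacral minus lumbar, ± SE) of each Hox gene against its paralogue number, with 1 panel per cluster. Filled points passed the threshold (orange higher in sacral, blue higher in lumbar), open points did not, crosses had reads but were not tested, and dashes had no reads. The highest values stand at number 11 in HoxC (4.42) and HoxD (3.81), and in HoxA and HoxB no gene passed the threshold towards sacral.

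Genes with low and high paralogue numbers differed in how many rose and fell. The counts here leave out Hoxd1, which was tested and did not pass the threshold. Over all genes tested, 30.3% rose and 15.3% fell in sacral DRG. Among tested members numbered 2 to 8, 10 of 15 fell and 1, Hoxd8, rose in sacral DRG, with a median log2 fold change of -0.45. Among those numbered 9 to 13, 5 of 9 rose and 1, Hoxb9, fell, with a median of 0.92. These counts hold only members past the filter, which 5 of the 10 that fell (Hoxa2, Hoxb6, Hoxb7, Hoxc5 and Hoxd3) passed through lumbar groups alone. Of those numbered 9 to 13, Hoxc11 passed it through sacral groups alone and Hoxb9 through lumbar groups alone. The medians, and the counts and rho values that follow, rest on members chosen in the same way. For numbers 10 to 13 alone, 4 of 5 rose and none fell, with a median of 3.27. Spearman's rho between number and log2 fold change was 0.94 over the 6 tested HoxD genes, 0.75 over 7 in HoxC, 0.36 over 7 in HoxA and -0.60 over 5 in HoxB, across genes that share the same 20 libraries and are not independent replicates. The plot of fold change by paralogue number shows the 4 clusters side by side.

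HoxD held the longest run of genes that rose. Hoxd11 (ENSMUSG00000042499, chr2:74517449-74525798, plus strand in mm9) and its paralogues are needed for the identity of the sacral spine. In lumbar libraries it lay at -4.30 to 1.17 (median -0.28) log2 RPKM and in sacral libraries at 2.19 to 3.19 (median 2.72). The groups did not overlap, and the sacral library was the higher in all 10 donors, by 2.02 to 6.79. The log2 fold change was 3.81 ± 0.56 (SE, adjusted p = 2.3e-05).

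Hoxd10 (ENSMUSG00000050368, chr2:74529147-74533163, plus strand), which takes part in the patterning of lumbar motor neurons, lay at -1.36 to 1.34 (median 0.78) log2 RPKM in lumbar and at 3.11 to 3.71 (median 3.46) in sacral libraries. Its levels also did not overlap and were higher in the sacral library of every donor, by 2.35 to 4.67. The log2 fold change was 3.27 ± 0.29 (adjusted p = 1.8e-07).

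Hoxd9 (ENSMUSG00000043342, chr2:74535737-74538265, plus strand), which acts with the other paralogues numbered 9 around the thoracic to lumbar transition, lay at 1.07 to 1.82 (median 1.61) in lumbar and at 2.34 to 3.01 (median 2.69) in sacral libraries, again without overlap, and differed by 1.12 ± 0.10 (adjusted p = 2.2e-07). Hoxd8 (ENSMUSG00000027102, chr2:74542672-74545990, plus strand) is the member next to the change of direction in this cluster. It lay at 2.77 to 3.24 (median 2.86) in lumbar and at 3.25 to 3.52 (median 3.44) in sacral libraries, with all sacral values above all lumbar ones, and differed by 0.50 ± 0.06 (adjusted p = 6.1e-06). The difference thus became smaller from Hoxd11 to Hoxd8, while the lumbar level became higher.

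On the other side of the change, Hoxd4 was below the filter, with 9 to 81 reads (median 30) in lumbar and 0 to 75 reads (median 13.5) in sacral libraries, and it was the lower in the sacral library of 9 donors. With empty cells set to 0.5 reads and no filter, its log2 fold change was -1.83 ± 0.58 (adjusted p = 0.019), in a fit that called 12.9% of all genes higher in lumbar DRG. Hoxd3 (ENSMUSG00000079277, chr2:74549986-74586331, plus strand) lay at -1.79 to -0.02 (median -0.76) in lumbar and at -1.99 to -0.65 (median -1.42) in sacral libraries, with overlap, and differed by -0.60 ± 0.23 (adjusted p = 0.042). That call was lost in 17 of 25 other settings, among them the fit without the replicate block (adjusted p = 0.066). Exons of Hoxd3 and Hoxd4 overlap over 67.4% of the bases of Hoxd4, so reads there cannot be given to either gene. Hoxd1, which has been tied to the wiring of nociceptor circuits in mouse, lay at 1.07 to 2.57 (median 1.75) and 1.47 to 2.53 (median 1.63), a difference of 0.02 ± 0.17 (adjusted p = 0.94) whose sign turned with TMM factors (-0.09). Hoxd12 and Hoxd13 had no read in any library, which with a floor of 3 reads over a group allows up to 0.00544 RPM (reads scaled to library size) in lumbar and 0.00548 RPM in sacral DRG.

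**Figure D2:**
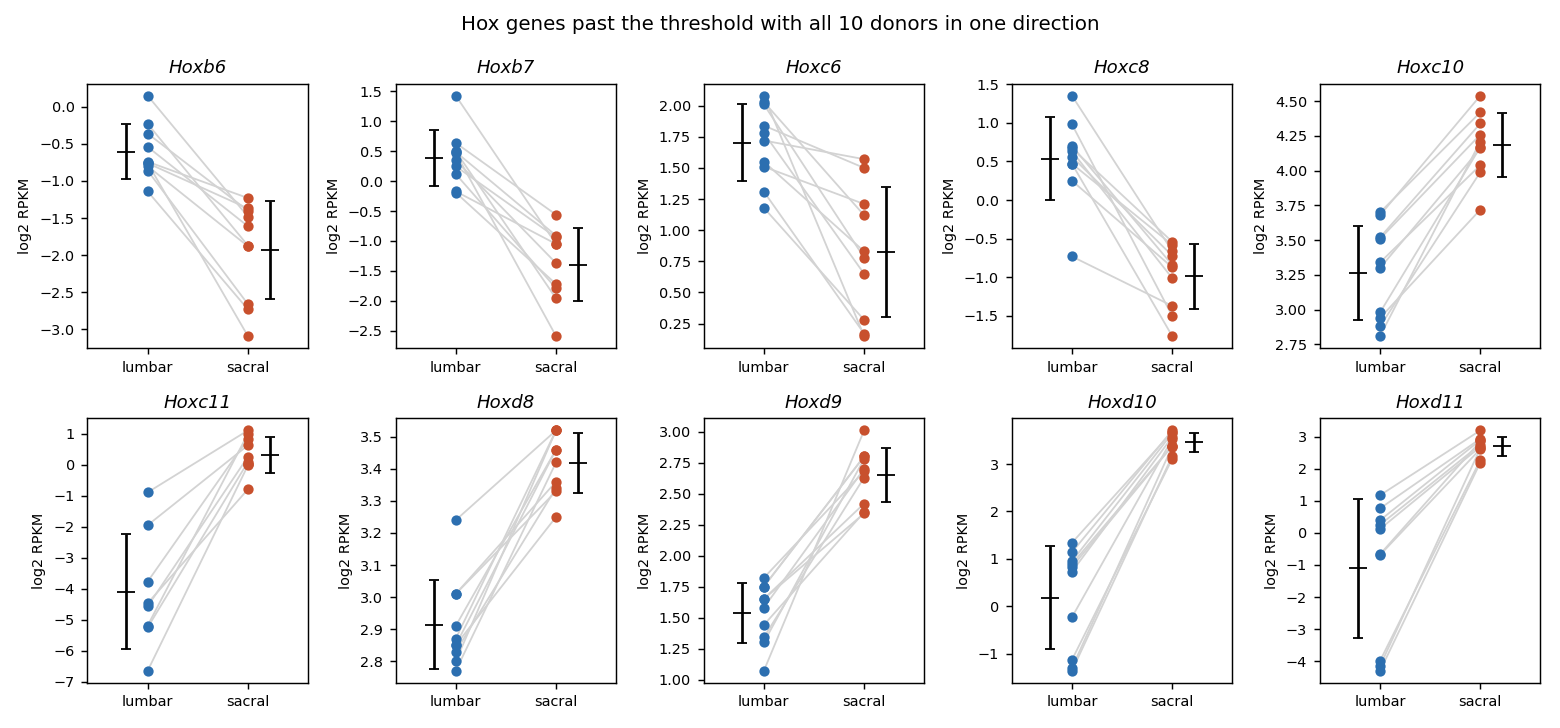
Log2 RPKM of the 10 Hox genes that passed the threshold with all 10 donors in one direction, in lumbar (blue) and sacral (orange) libraries, with lines joining the libraries of a donor and black marks for the mean ± SD (n = 10, or the libraries with reads). In Hoxd8 to Hoxd11, Hoxc10 and Hoxc11 every sacral point lies above every lumbar point, and in Hoxb6, Hoxb7, Hoxc6 and Hoxc8 every line falls.

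In HoxC the last genes of the cluster were close to off in lumbar DRG. Hoxc11 (ENSMUSG00000001656, chr15:102784858-102788139, plus strand) had 0 to 63 reads (median 3) in lumbar libraries, 2 of which had none, and 58 to 293 reads (median 137) in sacral libraries. On the log2 scale these were -6.65 to -0.89 (median -4.52) in the 8 lumbar libraries with reads and -0.79 to 1.11 (median 0.17) in the sacral ones, and the fit, which leaves empty cells out, gave 4.42 ± 0.46 (adjusted p = 1.4e-06). The highest lumbar value, from donor F5, lay just under the lowest sacral one, from donor M3.

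Hoxc12 had no read in any lumbar library and 3 to 128 reads (median 34) in sacral libraries, and all 10 sacral libraries had some. With a floor of 3 reads over the 10 lumbar libraries, its depth-scaled reads were at least 134-fold higher in sacral DRG. Hoxc13 was likewise without reads in lumbar libraries and had 0 to 37 reads (median 10.5) in sacral libraries, 8 of which had some, which gave at least 44.6-fold. The floors cover counting error only. Neither could be tested with empty cells left out, and with empty cells at 0.5 reads both passed the threshold (adjusted p = 2.4e-07 for Hoxc12 and 0.00089 for Hoxc13), where 20.7% of all genes were called higher in sacral DRG.

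Hoxc10 (ENSMUSG00000022484, chr15:102797227-102802324, plus strand), a gene of lumbar motor neurons, was high at both levels. It lay at 2.81 to 3.70 (median 3.32) log2 RPKM in lumbar and at 3.72 to 4.54 (median 4.19) in sacral libraries, without overlap, and differed by 0.92 ± 0.10 (adjusted p = 1.5e-06). Hoxc9, known for thoracic identity, stood between the genes that rose and those that fell, at -0.83 to 0.14 (median -0.29) in lumbar and -1.04 to 0.34 (median -0.30) in sacral libraries. Its difference was -0.09 ± 0.18 (adjusted p = 0.72), with 5 donors in each direction.

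Hoxc8 (ENSMUSG00000001657, chr15:102821053-102824698, plus strand), a gene of brachial and thoracic levels, lay at -0.73 to 1.35 (median 0.60) in lumbar and at -1.76 to -0.54 (median -0.85) in sacral libraries. Only the lumbar library of donor F5, at -0.73, fell within the sacral range, and the sacral library was the lower in all 10 donors. Hoxc8 fell by 1.52 on the log2 scale (SE 0.19, adjusted p = 6.7e-06). Hoxc6 (ENSMUSG00000001661, chr15:102828688-102842312, plus strand), which marks forelimb levels, lay at 1.18 to 2.08 (median 1.75) in lumbar and 0.15 to 1.57 (median 0.80) in sacral libraries, with overlap between the groups but lower values in the sacral library of every donor (-0.88 ± 0.16, adjusted p = 0.00021).

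Hoxc5 fell by 2.24 on the log2 scale (adjusted p = 0.0044), with 42 to 261 reads (median 90.5) per lumbar and 1 to 85 reads (median 38) per sacral library, and was the lower in sacral DRG in 8 of 10 donors. The lowest value, 1 read, came from the sacral library of donor M5. Hoxc4 fell by 0.45 (adjusted p = 0.048) in 8 of 10 donors, and that call was lost in 18 of 26 other settings.

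No HoxB gene rose in sacral DRG, and 4 of the 5 tested fell, where 15.3% of all genes did. Hoxb6, Hoxb7 and Hoxb9 entered the test through lumbar groups only, the level where they are high. Hoxb4 and Hoxb5 entered at both levels. Hoxb7 (ENSMUSG00000038721, chr11:96145571-96151650, plus strand) lay at -0.19 to 1.43 (median 0.41) in lumbar and at -2.59 to -0.56 (median -1.21) in sacral libraries, without overlap, and differed by -1.78 ± 0.23 (adjusted p = 7.3e-06). Hoxb6 (ENSMUSG00000000690, chr11:96153790-96162883, plus strand) lay at -1.14 to 0.15 (median -0.75) and -3.09 to -1.23 (median -1.74), also without overlap, and differed by -1.33 ± 0.25 (adjusted p = 0.00025). Both were lower in the sacral library of all 10 donors, and both act mainly at cervical and thoracic levels.

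Hoxb9 was the single tested member numbered 9 or higher that fell, with -1.86 to 0.45 (median -0.85) in lumbar and -4.07 to -0.50 (median -2.23) in sacral libraries, with overlap, in 8 of 10 donors (-1.32 ± 0.35, adjusted p = 0.0043). Hoxb8, known for its part in grooming behaviour, was below the filter, with 6 to 46 reads (median 27) in lumbar libraries and 0 to 15 reads (median 1.5) in sacral libraries, 4 of which had none. The sacral library was the lower in 9 donors, and with empty cells at 0.5 reads the log2 fold change was -4.15 ± 0.63 (adjusted p = 5.2e-05), a size that depends on the value set for empty cells. Exons of Hoxb7 and Hoxb8 overlap over 26.2% and 40.4% of their bases.

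Hoxb4 fell by 0.44 (adjusted p = 0.043) in 9 of 10 donors, and the call was lost in 17 of 26 other settings. Hoxb5, the highest HoxB gene by level, lay at 1.88 to 2.97 (median 2.35) and 1.6 to 2.94 (median 2.38) and differed by -0.06 ± 0.11 (adjusted p = 0.66). Hoxb2 and Hoxb3 had 7 to 91 and 23 to 79 reads in a library and were below the filter. The voom fit called Hoxb3 higher in lumbar DRG (-0.71, adjusted p = 0.026). With empty cells at 0.5 reads and no filter Hoxb3 was not called (-0.61, adjusted p = 0.1). Hoxb1 and Hoxb13 had no read in any library.

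Of the 7 HoxA genes tested, 2 fell, where 15.3% of all genes did, and 5 did not pass the threshold. Hoxa7 entered the test at both levels and Hoxa2 through lumbar groups only. Hoxa7, the highest HoxA gene at 3.50 ± 0.16 log2 RPKM (SD, n = 10) in lumbar and 3.21 ± 0.22 in sacral libraries, fell by 0.29 (adjusted p = 0.0052) in 9 of 10 donors. Hoxa2, a hindbrain patterning gene, fell by 1.07 (adjusted p = 0.0048) in 9 of 10 donors, at 41 to 140 reads (median 75) in lumbar and 16 to 78 reads (median 57.5) in sacral libraries.

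Hoxa10, the paralogue of Hoxc10 and Hoxd10, lay at 0.81 to 1.79 (median 1.36) in lumbar and at 1.30 to 1.94 (median 1.64) in sacral libraries, with overlap. Its difference was 0.30 ± 0.12 (adjusted p = 0.054), higher in sacral DRG in 8 of 10 donors, and it passed the threshold in 4 of 26 other settings. Hoxa9 stood at 1.46 ± 0.25 and 1.5 ± 0.29 (SD, n = 10), a difference of 0.04 ± 0.12 (adjusted p = 0.8) that turned to -0.07 with TMM factors.

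Hoxa4 had the widest lumbar spread in this cluster among tested genes, from 2 to 79 reads, and its 1.13 ± 0.50 did not pass the threshold (adjusted p = 0.071). Hoxa5 and Hoxa6 differed by -0.23 and -0.21 (adjusted p = 0.39 and 0.42). Hoxa11 had 0 to 25 reads in lumbar and 0 to 90 reads in sacral libraries and Hoxa13 had none. For Hoxa3, whose rows share exons with each other and with noncoding genes, the row with whole read numbers had 88 to 239 reads in lumbar and 84 to 172 in sacral ones. Over an exon length of 6566 bases its mean log2 RPKM stayed below the filter, and the voom fit, which filters on reads without length, called it higher in lumbar DRG (-0.62, adjusted p = 0.0038).

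The glial markers moved with the level in all donors, so each fit was repeated with their mean as a covariate. Of the 17 Hox genes past the threshold, 16 kept their sign and 4, Hoxc10, Hoxc11, Hoxd9 and Hoxd10, kept their call, at 0.81, 4.13, 0.87 and 2.97. In that fit 118 genes of all those tested were called higher in sacral DRG and 12 higher in lumbar DRG. Because the covariate moves with the level, the SE was wider there. It was 1.07 against 0.56 for Hoxd11, 0.12 against 0.06 for Hoxd8 and 0.37 against 0.19 for Hoxc8. A lost call in that fit is thus no measure of a glial part in a difference, which was not tested. Hoxd11 had 3.53 (adjusted p = 0.15), Hoxd8 0.46 (adjusted p = 0.07) and Hoxb7 -1.74 (adjusted p = 0.069). Hoxc6 had -1.06 (adjusted p = 0.13) and Hoxc8 -1.30 (adjusted p = 0.12). Hoxc5 turned its sign, to 0.59 (adjusted p = 0.87). Other estimates became smaller in size. Hoxa2 went from -1.07 to -0.40 (adjusted p = 0.84) and Hoxb9 from -1.32 to -0.51 (adjusted p = 0.83). Hoxb6 went from -1.33 to -0.89 (adjusted p = 0.52) and Hoxb4 from -0.44 to -0.24 (adjusted p = 0.85). Those of Hoxa7 (-0.32), Hoxc4 (-0.40) and Hoxd3 (-0.49) changed less, and were not called either.

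Lumbar libraries differed from each other in the posterior HoxD genes far more than sacral libraries did. The SD of Hoxd11 was 2.17 log2 units over lumbar and 0.30 over sacral libraries, and that of Hoxd10 was 1.08 and 0.21. Hoxd11 had 11 to 18 reads in the lumbar libraries of donors M2, M3 and F2 and 161 to 707 in the other 7. Hoxd10 had 43 to 61 reads in the same 3 libraries and 107 to 387 in the others. The noncoding gene Gm20440, which lies over Hoxd10 and Hoxd11, had 7 to 16 against 57 to 279 reads there.

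Hoxd9 and Hoxd8 did not separate these 3 libraries, with 1.07 to 1.58 against 1.30 to 1.82 log2 RPKM for Hoxd9 and 2.85 to 3.01 against 2.77 to 3.24 for Hoxd8. Their worked-back totals of 57025576 to 60909274 reads were within the range of the others, and their glial marker mean was 6.33 to 7.33 against 6.31 to 7.19 log2 RPKM in the other 7. The lumbar library of donor F5 stood at the other end, with the most reads of Hoxd11 (707), Hoxd10 (387) and Hoxc11 (63) and the fewest of Hoxc8 (80) and Hoxb8 (6). Among sacral libraries, that of donor M3 had the fewest reads of Hoxd10 (1132), Hoxd11 (1301) and Hoxc11 (58). These read numbers are not scaled to library size. The lumbar library of F5 held 61822780 reads, the most among lumbar libraries. The sacral library of M3 held 48003336, in a sacral range of 46044602 to 65542378.

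These 3 libraries were chosen after their values were seen. Without donors M2, M3 and F2 the Hox calls were 6 higher in sacral and 8 higher in lumbar DRG, and the log2 fold changes were 2.67 ± 0.21 for Hoxd11 (adjusted p = 2.7e-06) and 2.73 ± 0.17 for Hoxd10 (adjusted p = 2.9e-07). Hoxa7, Hoxb4 and Hoxd3 were no longer called.

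**Figure D3:**
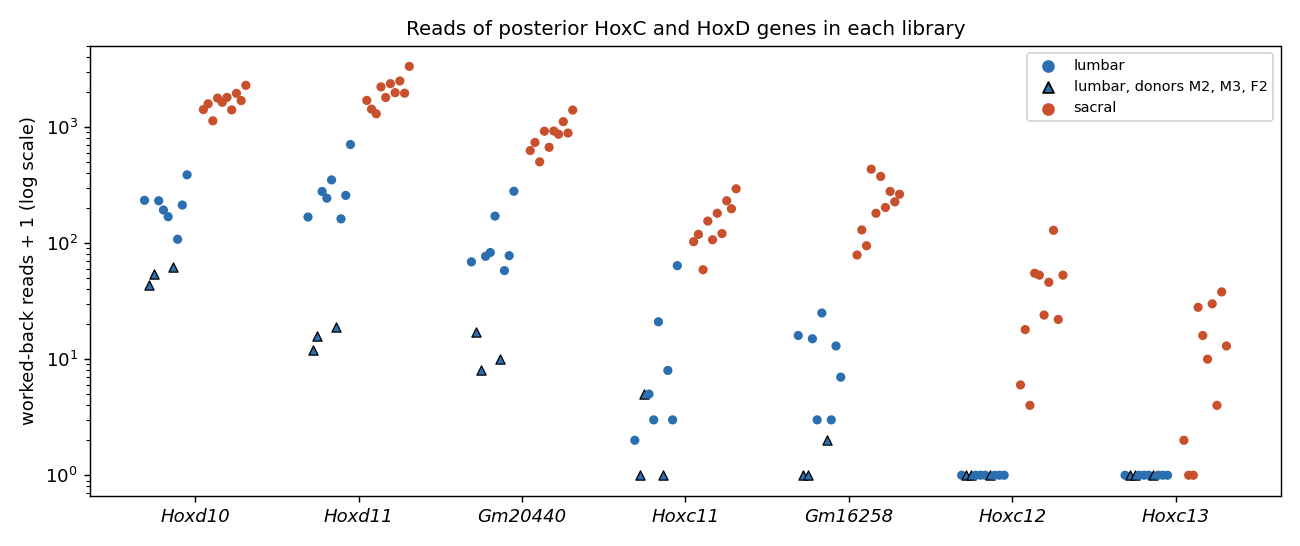
Worked-back reads plus 1 (log scale) of posterior HoxC and HoxD genes and 2 noncoding neighbours in each lumbar (blue) and sacral (orange) library, with triangles for the lumbar libraries of donors M2, M3 and F2. Sacral points of Hoxd11 lie between 1301 and 3337 reads, the triangles of Hoxd11 between 11 and 18, and all lumbar points of Hoxc12 and Hoxc13 at 0 reads.

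Differences between neighbouring genes inside a library do not depend on the scaling between libraries. Hoxd10 minus Hoxd9 ranged from -2.80 to -0.42 in lumbar libraries (median -0.90) and from 0.37 to 1.37 in sacral libraries (median 0.80). Per exon length, Hoxd9 was thus the higher of the pair in all lumbar libraries and Hoxd10 in all sacral libraries, and the difference rose by 2.16 ± 0.88 (SD, n = 10 donors).

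Hoxc10 minus Hoxc8 was 1.96 to 4.43 (median 2.52) in lumbar and 4.57 to 5.96 (median 5.05) in sacral libraries, without overlap. Hoxc10 minus Hoxc9 was 2.74 to 4.16 in lumbar and 4.02 to 5.32 in sacral libraries, with overlap, and was higher in the sacral library of all 10 donors. Hoxa10 minus Hoxa9 ranged from -0.56 to 0.45 in lumbar and from -0.25 to 0.61 in sacral libraries and was higher in the sacral library of 7 donors. Hoxb9 minus Hoxb8 could be formed in 6 sacral libraries, where Hoxb8 had at most 15 reads. It was higher in the sacral library of 5 of these 6 donors. Its median was 1.43 over all 10 lumbar libraries and 2.34 over the 6 sacral libraries, which are unlike sets of donors.

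**Figure D4:**
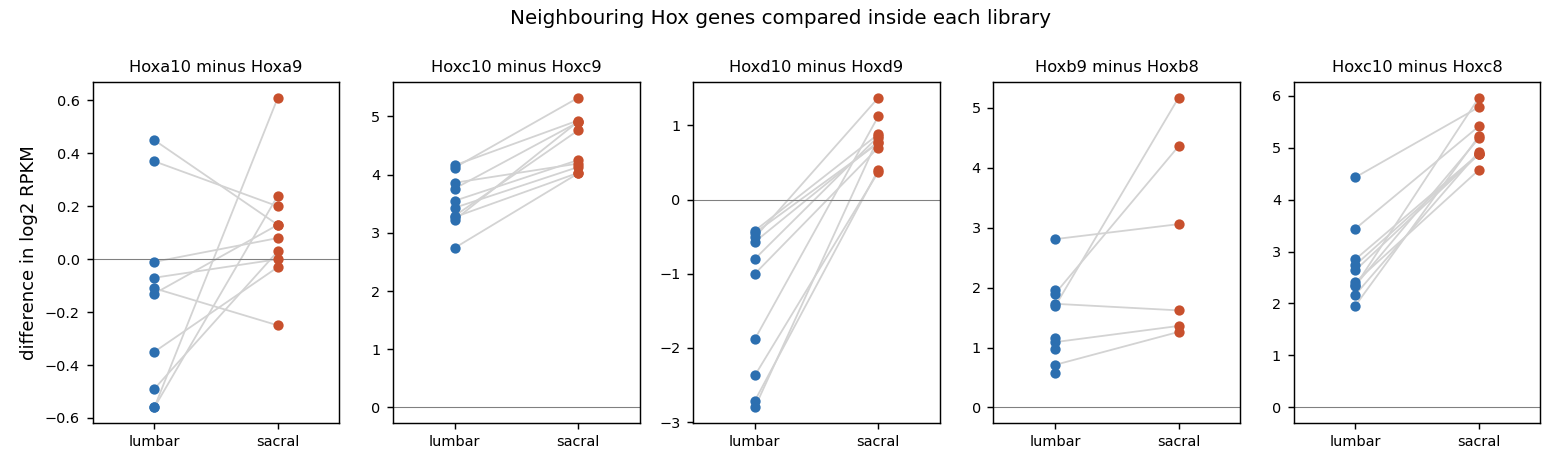
Difference in log2 RPKM between 2 Hox genes in each lumbar (blue) and sacral (orange) library, with lines joining the libraries of a donor. Hoxd10 minus Hoxd9 crosses 0 in every donor, from a lumbar median of -0.90 to a sacral median of 0.80.

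The makeup of the Hox RNA can be read from the share of each cluster in the summed RPKM of all members in a library. HoxD took 21.5% to 30.5% in lumbar (median 25.7%) and 39.6% to 47.8% in sacral libraries (median 42.4%), higher in the sacral library of all 10 donors. HoxA took 28.8% to 36.7% in lumbar and 19.3% to 24.9% in sacral libraries, and HoxB 12.8% to 17.7% and 6.34% to 9.60%, both lower in all 10. HoxC had similar shares, with medians of 26.7% and 27.5% and 5 donors in each direction. Members numbered 10 to 13 made up 15.2% to 30.1% of the sum in lumbar and 39.9% to 50.6% in sacral libraries. A share falls when others rise, so these values describe the mixture and not each cluster's level.

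**Figure D5:**
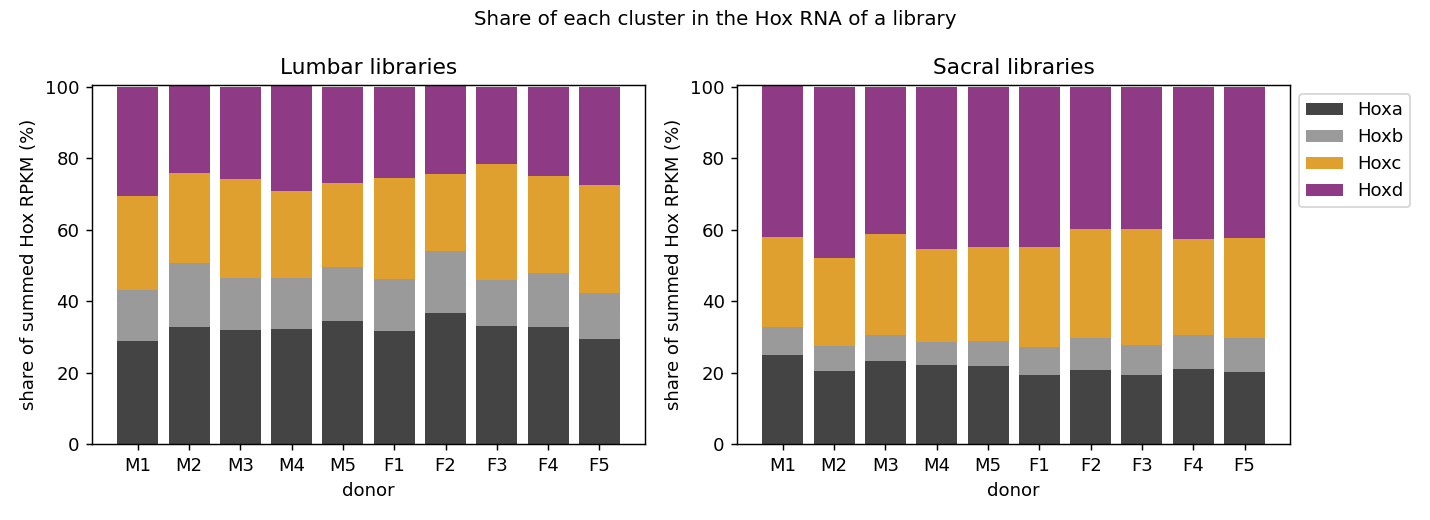
Share (%) of each Hox cluster in the summed RPKM of the Hox members, for each donor, in lumbar (left) and sacral (right) libraries. The HoxD part has a median of 25.7% on the left and 42.4% on the right, with no overlap.

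Genes lying inside the clusters or within 100 kb of their ends were followed as neighbours. The annotation held 56 of them, 41 had reads and 22 were tested, of which 4 were higher in sacral DRG, 3 were higher in lumbar DRG and 15 did not pass the threshold, against 30.3% and 15.3% of all genes called in these directions, which neither count exceeds. Gm16258 (ENSMUSG00000086903, chr15:102774493-102778851, minus strand), for which RefSeq gives the name Hotair, is a noncoding RNA between Hoxc11 and Hoxc12 that has been studied as a partner of Polycomb repressive complex. It had 0 to 24 reads (median 4) in lumbar and 78 to 433 reads (median 214) in sacral libraries. The groups did not overlap, and the log2 fold change was 4.72 ± 0.56 (adjusted p = 5.5e-06), with the lumbar libraries that had no read left out. With the glial covariate it was the single called neighbour among these 7 to stay called (5.05, adjusted p = 0.026).

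Gm20440 (chr2:74521503-74532251, plus strand), on the same strand as Hoxd10 and Hoxd11, had 7 to 279 reads (median 72) in lumbar and 501 to 1402 reads (median 877.5) in sacral libraries, a difference of 3.75 ± 0.46 (adjusted p = 4.7e-06), and of 3.75 (adjusted p = 0.051) with the glial covariate. It shares 8.4% of the exon bases of Hoxd11 and 3.9% of those of Hoxd10, where reads cannot be told apart. Gm20398, which lies over Hoxc5 to Hoxc10, differed by 0.56 ± 0.22 (adjusted p = 0.041) and was not called with TMM factors or with the glial covariate (0.78, adjusted p = 0.53). Lnp, a protein-coding gene beyond the posterior end of HoxD whose product shapes the endoplasmic reticulum, differed by 0.44 ± 0.12 (adjusted p = 0.0059), and by -0.05 (adjusted p = 0.96) with the glial covariate.

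Those higher in lumbar DRG were Gm15051, named Hotairm1 by RefSeq, with -0.97 ± 0.30 (adjusted p = 0.012), Gm15050 with -1.27 ± 0.33 (adjusted p = 0.0034) and 1700109F18Rik, named Hoxd3os1, with -0.56 ± 0.22 (adjusted p = 0.048). The first pair lie near the anterior end of HoxA, and the last shares exon bases with Hoxd3 on the other strand, where reads cannot be told apart. With the glial covariate they had -0.14 (adjusted p = 0.96), -0.77 (adjusted p = 0.7) and -0.07 (adjusted p = 0.98). Mtx2, the protein-coding gene beyond the anterior end of HoxD, did not pass the threshold, at -0.08 ± 0.10 (adjusted p = 0.54).

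The partners and regulators of Hox genes did not share 1 direction, and their counts are to be read against the 30.3% of all genes that rose and the 15.3% that fell. Of 9 TALE cofactors 7 were tested, 1 rose and 1 fell in sacral DRG and 5 did not pass the threshold, with a median of 0.06, so neither direction exceeded its share of all genes. Meis3 rose in all 10 donors, with 2.09 to 2.95 (median 2.67) in lumbar and 2.62 to 3.13 (median 2.90) in sacral libraries log2 RPKM (0.30 ± 0.10, adjusted p = 0.015), but was not called with TMM factors (adjusted p = 0.11). Pbx3, which fell, had -0.61 (adjusted p = 0.0011) and is named after its value was seen, as are the further genes of these lists given by name only.

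Of 28 genes of Polycomb and Trithorax complexes, 27 were tested, 4 rose, 4 fell and 19 did not pass the threshold, with a median of -0.04, so the list was called no more often than genes at large. Cbx6, a chromodomain subunit of Polycomb repressive complex, rose in all 10 donors, with 3.14 to 4.42 (median 3.62) in lumbar and 4.02 to 4.80 (median 4.42) in sacral libraries (0.82 ± 0.10, adjusted p = 6.1e-06), as did the histone methyltransferase gene Ezh1 (0.42 ± 0.10, adjusted p = 0.0027) and the chromatin reader gene Psip1 (0.30 ± 0.08, adjusted p = 0.0041). Cbx2, another chromodomain subunit, was lower in the sacral library of all 10 donors, with -1.6 to -0.05 (median -0.87) in lumbar and -2.79 to -0.78 (median -2.04) in sacral libraries (-0.95 ± 0.27, adjusted p = 0.0074). The others that passed the threshold were Men1, which rose but was not called with TMM factors (adjusted p = 0.2), and Ezh2, Bmi1 and Rnf2, which fell.

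Of 12 axial signals and upstream regulators, 8 were tested, 1 (Cyp26b1) rose and 3 (Aldh1a2, Rara and Rarb) fell, with a median of -0.39. Cyp26b1 was not called with TMM factors (adjusted p = 0.062), and 8 genes are few to set against the share of all genes. Aldh1a2, which makes retinoic acid, lay at -0.17 to 2.40 (median 0.85) in lumbar and at -4.47 to 0.78 (median -1.22) in the 9 sacral libraries with reads (-2.10 ± 0.47, adjusted p = 0.0012), and Rara, a retinoic acid receptor, lay at 0.30 to 1.42 (median 1.0) in lumbar and -0.76 to 1.06 (median 0.16) in sacral libraries (-0.66 ± 0.19, adjusted p = 0.0077), both lower in the sacral library of all 10 donors. Cdx2 and Cdx4, which switch on posterior Hox genes in the embryo, had no read in any library. With the glial covariate none of the genes called from these 3 lists stayed called, and Kdm6b, a histone demethylase gene of the Polycomb and Trithorax list, became called (1.12, adjusted p = 0.012, against 0.01 without the covariate). Glial markers fell in the same libraries, and their part in these differences was not tested further.

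The sexes were compared at each level, and the level difference was compared between them. No Hox gene passed the threshold for the interaction of sex and level in 25 tested (adjusted p of 1 in each, 0% of 16304 genes called), and 1, Hoxa7, had an unadjusted p under 0.05. The voom fit on worked-back reads called no Hox gene either. Over all genes 668 had an unadjusted p under 0.05 for the interaction.

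For female minus male, none of 25 Hox genes was called in lumbar DRG (0.0427% of all genes were) and none of 26 in sacral DRG (0.0368%), and 2 had an unadjusted p under 0.05 at each level. Hoxb5 was among them at both levels, with means of 2.14 in male and 2.58 in female lumbar libraries (n = 5 each) and 1.98 in male and 2.62 in female sacral libraries, differences of 0.44 and 0.64 (limma, adjusted p = 0.35 and 0.27). Hoxc11 in lumbar libraries differed by 2.25 ± 0.75 (adjusted p = 0.33), with the libraries without reads left out, and Hoxc9 in sacral libraries by 0.66 ± 0.28 (adjusted p = 0.57).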

How the data were processed

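Cells sorted from DRG for the Trpv1 reporter were sequenced in 20 libraries on the Illumina HiSeq2500. The authors aligned reads to mm9 with Subread, counted uniquely mapped reads with featureCounts against Ensembl 67 genes, and deposited log2 RPKM values, which their methods describe as TMM-adjusted. All 20 libraries had the same median (0.93) over cells with a value, and TMM factors worked out here still moved the median fold change of all genes from 0.11 to 0. Their processing notes name Subread 1.18 and 1.20.6, R 3.2.1 and 3.2.2, and limma 3.26.9. An empty cell stands for no reads. Reads were worked back from the steps of the values, and 98.1% of 430293 values came out whole within 0.01 reads. Libraries held 43499216 to 65542378 reads, so low genes rest on few reads, and floors of 3 reads cover counting error only.

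Differences were fitted with limma 3.58.1 (R 4.3.3), taking the log2 values as deposited, with 4 group means, a mean-variance trend and the donor as a random block (correlation 0.17), with Benjamini-Hochberg adjustment over all genes tested and a threshold of 0.05. Genes entered with a mean above -1 in at least 1 group with 3 values. Libraries of the same donor, by the animal numbers in the labels, deviated together (mean correlation 0.18, lowest 0.04, over 15318 genes) against -0.04 between donors. The p-values rest on the spread of libraries within the 4 groups, with the correlation within a donor taken into account. The Hox genes as a subject and the lists were chosen with earlier results of these data known. Members past the threshold with all 10 donors in one direction, and those beside a change of direction, were described in full, and from the other lists the genes past the threshold with all 10 donors in one direction were named. Alternatives changed the filter, pseudocount, scaling, test, block, donors, sexes, threshold and a glial covariate. Of the 37620 identifiers, 37205 matched the annotation. 1 further gene that the name pattern takes is not reported here.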

Additional observations from a re-analysis of the deposited data

Results flagged for a closer look

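In groups of 5 libraries, 4 of the 127 gene and group combinations tested held a library far from the others by Dixon's criterion, where chance gives about 1 in 20. Hoxc4 was highest in the male lumbar library of donor M3, at 0.72 log2 RPKM against 0.13 to 0.22 in the others. Hoxc5 was lowest in the male sacral library of donor M5, at -7.17 against -2.19 to -0.82. Hoxc9 was lowest in the female sacral library of donor F1, at -0.98 against 0.13 to 0.34. Hoxc11 was lowest in the male sacral library of donor M3, at -0.79 against -0.02 to 0.26.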

How the results depend on the processing

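Hoxc10, Hoxc11, Hoxd9 and Hoxd10 kept their direction and call in all 26 other settings, though the size for Hoxc11 ran from 1.06 (pseudocount 1) to 5.14 (male pairs alone), and Hoxd8 and Hoxd11 lost theirs with the glial covariate alone. Leaving out each donor gave 6 to 8 Hox genes higher in sacral and 8 to 11 higher in lumbar DRG, and 4271 to 4986 and 2172 to 2565 of all genes. Without the replicate block the Hox calls were 6 and 8 and those of all genes 4423 and 2154, and with the replicate block as a fixed effect 6 and 8, and 4688 and 2463. Hox genes higher in lumbar DRG numbered 5 with the filter at a mean above 0, 5 in male and 5 in female pairs alone, and 0 with the glial covariate. With that covariate Hoxb7, Hoxc6 and Hoxc8 still had -1.74, -1.06 and -1.30, while Hoxa2 and Hoxb9 had -0.40 and -0.51. Genes of the whole table higher in sacral DRG numbered 2975 in male pairs, 2519 in female pairs and 118 with the glial covariate, and those higher in lumbar DRG 1152 in female pairs, 12 with the glial covariate and 1615 at an adjusted p of at most 0.01.

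Reversals were found in genes that had not passed the threshold and in Hoxc5. With the glial covariate Hoxa5 had 0.24, Hoxa9 -0.55, Hoxa10 -0.17, Hoxc5 0.59 and Hoxd1 -0.44. With TMM factors Hoxa9 had -0.07 and Hoxd1 -0.09, with voom -0.10 and -0.14, and with quantile normalization Hoxa9 had 0, Hoxc9 0.03 and Hoxd1 -0.04. In male pairs Hoxa5 had 0.15 and Hoxa9 -0.10, and in female pairs Hoxb5 had 0.04, Hoxc9 0.08 and Hoxd1 -0.04. Without donor M5 Hoxa9 and Hoxd1 had -0.02 each, and Hoxd1 had -0.04 without F3 and -0.03 without F4. Without donors M2, M3 and F2 together, a setting chosen after seeing the data, Hoxa5 had 0.02, Hoxa6 0.11, Hoxb5 0.03 and Hoxc9 0.01. The cause was not tested.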
